A study of Caenorhabditis remanei with 48 samples.

Results

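Larvae whose parents lived at 30 °C were compared between a heat-selected and a control-selected population of the nematode *Caenorhabditis remanei*, in 8 of the 48 RNA libraries of the study. The libraries were chosen by their labels alone: all those with parents at 30 °C from the 2 selected populations. Heat-selected larvae of heated parents gave 4 libraries, 2 from larvae kept at 20 °C and 2 from larvae kept at 30 °C, all in batch E. Control-selected larvae of heated parents gave 4 libraries in the same arrangement, all in batch C. Both populations are labelled as derived from the strain PX443, the unselected ancestor. Each selection regime is represented by 1 population, and each population of heated parents by 1 batch. A difference between these libraries therefore cannot be told apart from a difference between batches C and E or from any other difference between these 2 populations. Libraries set beside them were those of unheated parents (20 °C) of the same populations, 8 in batches E and C and 16 in batches F and D, and 4 ancestor libraries of heated parents in batch A.

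In every group embryos freed by bleaching were kept for 20 h in buffer without food, so that they hatched and stopped at the first larval stage (L1), and about 100000 filtered larvae were pooled for polyadenylated RNA. *C. remanei* is an outcrossing relative of *C. elegans* that carries much genetic variation, which makes it suited to experimental evolution. In nematodes, as in other animals, heat raises transcripts of chaperones that refold or hold damaged proteins, and the temperature at which parents live can alter what their offspring transcribe. The comparison asks how far the 2 populations differ in larvae whose parents themselves lived in heat, and whether that difference is the one seen in larvae of unheated parents. What was measured are raw counts of reads in each gene model, which were scaled to CPM, counts per 1000000 counts in the genes tested, after adjustment of each library's total by its TMM factor (trimmed mean of M values). Whole larvae were sequenced, so fewer cells of a type and less RNA per cell cannot be told apart. The identifiers come with no gene names or products, so genes are called by their identifiers here, with no statement on what they do. CRE21731 stands for the model that the files call by the strain name PX356 followed by that number, and models without such a number keep the longer form, as CRE_PX356_3667.

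Counts in genes were 1986767 to 5657862 in the heat-selected and 3665207 to 6617493 in the control-selected libraries of heated parents. Replicate 2 of the heat-selected larvae at 30 °C had the lowest total of all 48 libraries. Its Pearson correlation with its own replicate across genes was 0.936 (log2 of CPM + 1), against 0.980 to 0.983 for the other 3 pairs of replicates, and it lay at the end of the first principal component, which held 34.6% of the variance. The second component, with 27.4%, set the 2 heat-selected libraries at 30 °C at opposite ends. Replicate 2 of the heat-selected larvae at 20 °C had 47.1% of its reads outside genes, the highest share of all 48. The labels do not say whether replicates came from separate cultures, and the p-values below then measure only the spread between these samples, which may be technical. The plot of the libraries and of the calls made without each of them shows how far 1 library set the counts given below.

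**Figure D1:**
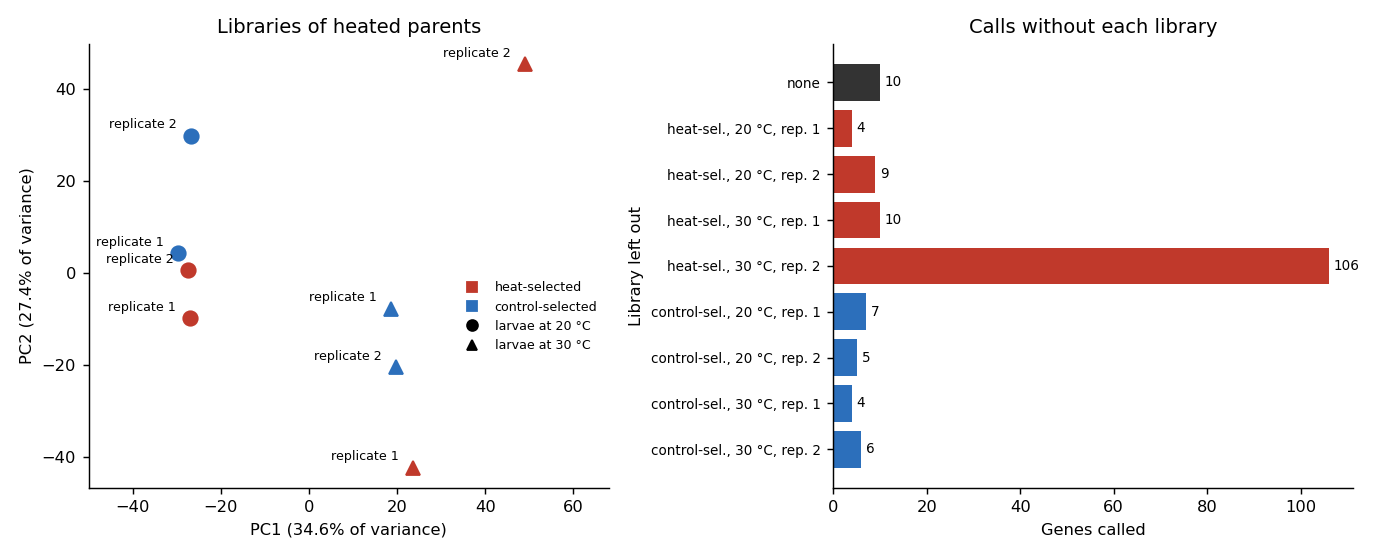
Left, the first and second principal components of the 8 libraries of heated parents, from log2 CPM of all genes tested, each point 1 library; the 2 heat-selected libraries at 30 °C lie far from each other, with replicate 2 at the right end of the first component. Right, bars give the number of genes called between the populations with all 8 libraries (none left out, 10 genes) and without each library in turn; 7 of the 8 omissions gave 4 to 10 genes and omission of that replicate gave 106.

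Over both larval temperatures, the number of genes that separated heat-selected from control-selected larvae of heated parents depended on the test and the filter. Of 13460 genes tested, 10 passed (0.0743%), at a Benjamini-Hochberg adjusted p under 0.05 in the quasi-likelihood test of edgeR, with larval temperature as a covariate. Of these, 8 were higher (0.0594%) and 2 lower (0.0149%) in heat-selected larvae. The same comparison gave 51 genes by DESeq2, 71 by limma-voom with sample quality weights (added after the data were seen), 110 with no filter and 167 with the libraries of a group summed, and 7 by limma-voom. An unadjusted p under 0.05 was reached by 802 genes (5.96%), and 346 genes (2.57%) had no overlap between the 4 heat-selected and the 4 control-selected libraries, 161 of them higher (1.2%) and 185 lower (1.37%) in heat-selected larvae. Chance alone also gives such genes, and its share was not computed here. Neither the 802 nor the 346 is therefore a count of genes that differ. An absolute log2 difference over 1 was fitted for 583 genes (4.33%) and over 2 for 85 (0.632%). Without replicate 2 of the heat-selected larvae at 30 °C the test called 106 genes, 64 higher and 42 lower, and all 10 were among them. Omission of another single library gave 4 to 10 calls: 4 without replicate 1 of the heat-selected larvae at 20 °C or replicate 1 of the control-selected larvae at 30 °C, and 5 and 6 without replicate 2 of the control-selected larvae at 20 and at 30 °C. With both heat-selected libraries that stand apart left out, a setting added after the data were seen, 93 genes were called, 63 higher and 30 lower, again with all 10 among them. Scaled to total counts, 10 genes were called, 6 higher and 4 lower, and with DESeq2's size factors 13, 9 higher and 4 lower.

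The 2 genes that fell sit close together on linkage group 1 in the authors' gene models, and are next to each other in the PX506 assembly of RefSeq, where both are listed as protein coding. CRE21731 was at 1.37 and 1.72 CPM in the heat-selected larvae at 20 °C and 0.885 and 0.724 CPM at 30 °C. In control-selected larvae it was at 35.9 and 30.6 CPM at 20 °C and 30.3 and 35.6 CPM at 30 °C. All 4 heat-selected libraries were thus far below all 4 control-selected ones, at either larval temperature. The fitted log2 difference was −4.77 ± 0.28 (SE; adjusted p = 3.2e-07 by edgeR, which stands here and below for the same quasi-likelihood test and adjustment over all genes tested).

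Its neighbour CRE21793 was almost absent from heat-selected larvae of heated parents, with 1 read in the 4 libraries together. That read gave 0.172 CPM in replicate 1 at 20 °C, and the other 3 heat-selected libraries held none. Control-selected larvae had 98 reads, at 5.89 and 4.65 CPM at 20 °C and 2.76 and 4.31 CPM at 30 °C. The groups did not overlap. Pooled over libraries, CRE21793 was 73.4 times as high in control-selected larvae as in the heat-selected ones, with an exact 95% interval of 12.9 to 2930 that covers counting error only. The adjusted p was 0.002 by edgeR.

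Among the 8 genes that rose, CRE_PX356_3667, on linkage group 1, had the lowest adjusted p. It was at 10.1 and 14.3 CPM in the heat-selected larvae at 20 °C and 12.4 and 17.0 CPM at 30 °C, against 2.14 and 1.90 CPM in control-selected larvae at 20 °C and 0.788 and 1.19 CPM at 30 °C. The heat-selected values varied little with larval temperature and all lay above the control-selected ones. Its log2 difference was 3.14 ± 0.34 (SE; adjusted p = 0.00083 by edgeR). CRE21731, CRE21793 and CRE_PX356_3667 were called in all 8 fits that left out 1 library and in every other setting that gave a value for them.

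CRE_PX356_5841, on scaffold 2370, was at 8.58 and 5.45 CPM in the heat-selected larvae at 20 °C and 3.10 and 4.34 CPM at 30 °C, against 1.43 and 0.845 CPM in control-selected larvae at 20 °C and 0.197 and 0.297 CPM at 30 °C. CRE23798 was at 7.55 and 5.45 CPM in the heat-selected larvae at 20 °C and 7.96 and 3.62 CPM at 30 °C, against 1.25 and 0.211 CPM in control-selected larvae at 20 °C and 0.788 and 1.34 CPM at 30 °C. Neither gene had overlapping groups. The log2 differences were 2.97 ± 0.44 for CRE_PX356_5841 and 2.73 ± 0.45 for CRE23798 (SE; adjusted p = 0.013 and 0.028 by edgeR). Both rest on few reads, 95 in heat-selected larvae against 15 in control-selected larvae for CRE_PX356_5841, and 109 in heat-selected larvae against 21 in control-selected larvae for CRE23798. CRE_PX356_5841 kept its call in 4 of the 8 fits that left out 1 library, with adjusted p up to 0.17, and CRE23798 in 1 of 8, with adjusted p up to 0.24.

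CRE10860, CRE30999 and CRE15656 were higher in heat-selected larvae at both larval temperatures, and in heat-selected larvae their values at 30 °C were all below those at 20 °C. CRE30999, on scaffold 114, was at 80.3 and 60.8 CPM in the heat-selected larvae at 20 °C and 25.7 and 15.2 CPM at 30 °C. In control-selected larvae it was at 17.5 and 11.8 CPM at 20 °C and 9.26 and 6.24 CPM at 30 °C. At the same larval temperature the groups did not overlap, but over both temperatures the lowest heat-selected library was below the highest control-selected one. The log2 difference was 1.88 ± 0.26 (SE; adjusted p = 0.0069 by edgeR). It was not called without replicate 1 of the control-selected or of the heat-selected larvae at 20 °C (adjusted p = 0.051 and 0.06).

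CRE10860, on linkage group 4, was at 69.7 and 71.7 CPM in the heat-selected larvae at 20 °C and 19.7 and 33.3 CPM at 30 °C, against 32.3 and 25.4 CPM in control-selected larvae at 20 °C and 10.4 and 11.1 CPM at 30 °C (log2 difference 1.28 ± 0.20 SE). CRE15656, on linkage group 8, was at 17.2 and 13.8 CPM in the heat-selected larvae at 20 °C and 6.41 and 2.53 CPM at 30 °C, against 2.50 and 1.06 CPM in control-selected larvae at 20 °C and 1.58 and 1.19 CPM at 30 °C (2.51 ± 0.40 SE). In both genes each heat-selected library exceeded both control-selected libraries at its larval temperature. Adjusted p-values were 0.023 for CRE10860 and 0.025 for CRE15656 by edgeR. CRE10860 kept its call in 2 and CRE15656 in 1 of the 8 fits without 1 library, with adjusted p up to 0.17 and 0.18.

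CRE26693 and CRE29510 were also higher in heat-selected larvae, with the largest values at 30 °C. CRE26693, on scaffold 340, was at 4.81 and 0.860 CPM in the heat-selected larvae at 20 °C and 18.1 and 13.0 CPM at 30 °C, against 0.357 and 0 CPM in control-selected larvae at 20 °C and 0.197 and 0.297 CPM at 30 °C. CRE29510 was at 7.72 and 0.287 CPM in the heat-selected larvae at 20 °C and 22.3 and 18.8 CPM at 30 °C, against 0.892 and 0 CPM in control-selected larvae at 20 °C and 0.591 and 1.04 CPM at 30 °C. The populations did not overlap for CRE26693, while for CRE29510 replicate 2 of the heat-selected larvae at 20 °C lay within the control-selected range. Log2 differences were 5.20 ± 0.64 for CRE26693 and 4.10 ± 0.67 for CRE29510 (SE; adjusted p = 0.002 and 0.025 by edgeR). CRE26693 was not called without replicate 1 of the control-selected larvae at 30 °C (adjusted p = 0.058), and CRE29510 kept its call in 3 of the 8 such fits, with adjusted p up to 0.34. CRE10860, CRE15656, CRE23798, CRE29510 and CRE30999 fell outside the rule for named genes, which requires no overlap and takes at most 2 genes in each direction among those without a PX506 locus tag. They were named after their values were seen, so that all 10 are given.

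**Figure D2:**
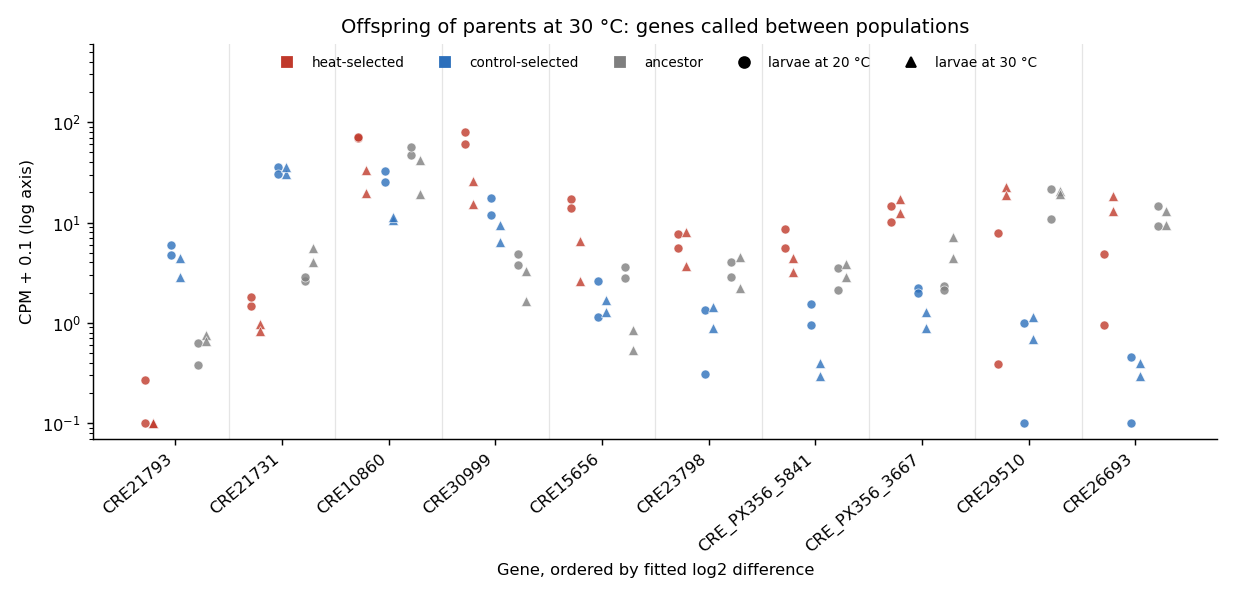
CPM + 0.1 on a log axis for the 10 genes called between the populations, 1 point per library of heated parents, with heat-selected, control-selected and ancestor libraries from left to right in each gene and the larval temperature given by the symbol. CRE21793 and CRE21731 are lower and the other 8 genes higher in heat-selected larvae, and the ancestor libraries lie on either side.

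Ancestor larvae of heated parents, which were no part of the fit, stood nearer to the heat-selected mean (of log2 CPM) for 7 of the 10 genes and nearer to the control-selected mean for 3, CRE15656, CRE30999 and CRE_PX356_3667. The share of all genes tested that stand nearer to either mean was not counted, so these numbers do not show which population the ancestor resembles more. CRE21731 was at 2.49 and 2.75 CPM in the ancestor at 20 °C and 5.53 and 3.91 CPM at 30 °C, above every heat-selected and below every control-selected library. CRE26693, at 14.7 and 9.04 CPM in the ancestor at 20 °C and 13.1 and 9.31 CPM at 30 °C, lay above every control-selected library. CRE30999 was lower in the ancestor than in either selected population at the same larval temperature, at 3.69 and 4.78 CPM at 20 °C and 1.55 and 3.17 CPM at 30 °C. The ancestor libraries are batch A, which again cannot be told apart from the population, and no test was run on them.

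The same population difference can be read in larvae of unheated parents, from libraries that none of the tests above used. In batches E and C, the batches of the heated parents, 24 genes were called (0.178%), 20 higher (0.149%) and 4 lower (0.0297%) in heat-selected larvae. In batches F and D, with 16 libraries in place of 8, 449 were called (3.34%), 241 higher (1.79%) and 208 lower (1.55%). Of the 10 genes called with heated parents, 5 were called in both of these comparisons with the same sign, CRE21731, CRE21793, CRE23798, CRE_PX356_3667 and CRE_PX356_5841. They make up 50% of the 10 and 20.8% of the 24. In batches E and C the count ran from 8 to 265 when 1 library was left out, the highest without replicate 1 of the heat-selected larvae at 20 °C. It was 57 without replicate 1 of the control-selected larvae at 20 °C, and 8 to 10 without either heat-selected library at 30 °C or replicate 2 of the control-selected larvae at 20 or 30 °C. In batches F and D it ran from 289 to 535, the lowest without replicate 4 of the control-selected larvae at 20 °C.

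CRE21731 differed by −4.77 ± 0.28 with heated parents, by −6.01 ± 0.45 with unheated parents in batches E and C and by −3.34 ± 0.26 in batches F and D (log2 ± SE; adjusted p = 3.2e-07, 3.9e-06 and 6.2e-08 by edgeR). CRE_PX356_3667 differed by 3.14 ± 0.34, 4.02 ± 0.40 and 2.50 ± 0.23 in the same order. With unheated parents CRE_PX356_3667 was at 8.96 to 23.5 CPM in all 12 heat-selected libraries, above the 0.693 to 4.72 CPM of the 12 control-selected libraries. CRE23798 differed by 2.73 ± 0.45, 3.45 ± 0.44 and 2.27 ± 0.31, and CRE_PX356_5841 by 2.97 ± 0.44, 4.36 ± 0.53 and 2.63 ± 0.44. These genes thus separated the populations in both pairs of batches and at both parental temperatures.

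CRE21793 showed the same direction, at −3.92 ± 0.67 in batches E and C and −3.82 ± 0.68 in batches F and D (log2 ± SE; adjusted p = 0.022 and 0.0024 by edgeR). With unheated parents it had no read in 8 of the 12 heat-selected libraries and up to 0.804 CPM in the other 4, while control-selected libraries reached 5.63 CPM and held a read in 11 of 12. The control-selected library without one was replicate 4 at 30 °C.

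The other 5 genes were not called in the same direction with unheated parents. CRE10860, CRE15656 and CRE30999 were called in neither pair of batches. CRE10860 differed by −0.93 ± 0.29 in batches E and C and −0.64 ± 0.24 in batches F and D (log2 ± SE). For CRE15656 the values were −0.67 ± 0.64 and −0.84 ± 0.37, so both genes had the opposite sign to that with heated parents. CRE30999 differed by −2.45 ± 0.57 in batches E and C and by 0.80 ± 0.41 in batches F and D (log2 ± SE; adjusted p = 0.12 and 0.35 by edgeR). CRE26693 and CRE29510 were called in batches F and D with the sign turned round, at −3.49 ± 0.67 and −3.94 ± 0.77 (adjusted p = 0.0047 and 0.0054 by edgeR), where heat-selected larvae were lower. In batches E and C neither was called, at −0.58 ± 1.36 for CRE26693 and 0.42 ± 1.03 for CRE29510 (log2 ± SE). The turned sign was thus seen as a call in batches F and D only. Over all 13460 genes the log2 differences with heated parents had a Pearson correlation of 0.106 (Spearman 0.0641) with those of batches E and C and of −0.0253 (0.0254) with those of batches F and D. The 2 sets of unheated parents correlated at 0.306 (0.242) with each other. These are correlations across genes, which are not independent replicates, and are given as a description.

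**Figure D3:**
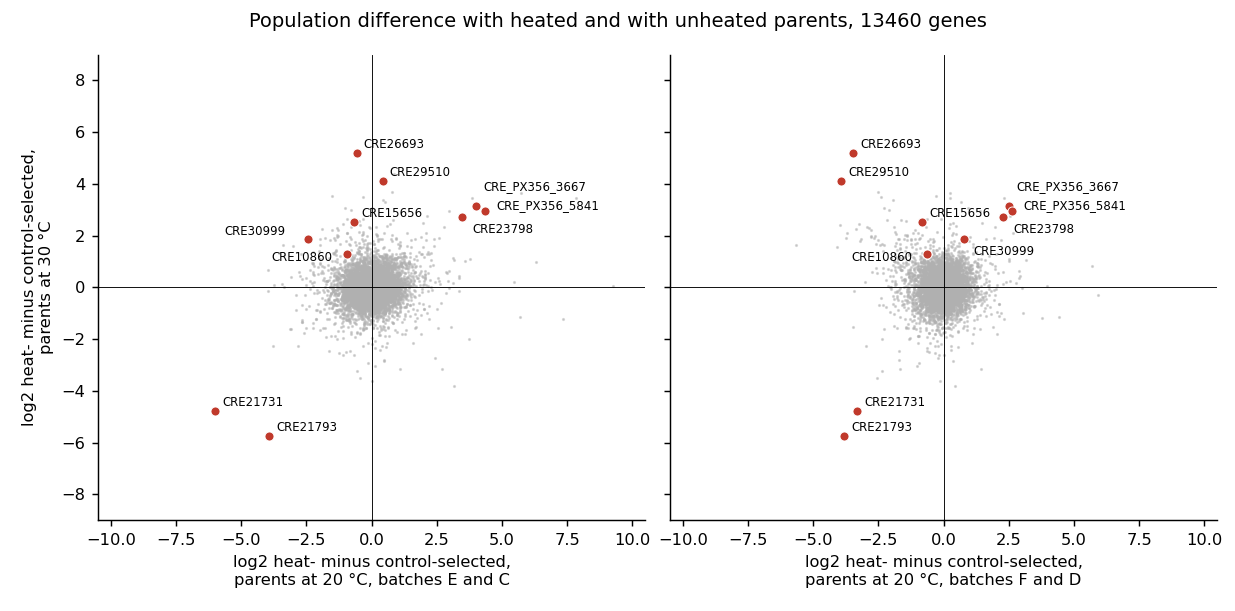
Log2 difference between heat-selected and control-selected larvae for 13460 genes, 1 grey point per gene, with heated parents on the vertical axis and unheated parents on the horizontal axis (left, batches E and C; right, batches F and D). The 10 genes called with heated parents are in red: 5 lie in the same direction in both panels, and CRE26693 and CRE29510 lie at negative values on the right.

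Within one larval temperature the groups have 2 libraries each. At 20 °C the test called 2 genes (0.0149%), 1 in each direction (0.00743% each). They were CRE30999, higher by 2.26 ± 0.34 and CRE21731, lower, at −4.43 ± 0.38 in heat-selected larvae (log2 ± SE; adjusted p = 0.044 and 6.3e-05 by edgeR). CRE30999 lost this call without any one of the 6 libraries other than the heat-selected larvae at 30 °C (adjusted p from 0.09 to 1). Without replicate 1 or 2 of the heat-selected larvae at 30 °C, which enter through the estimate of the spread, 21 and 22 genes were called, and 4 without replicate 1 of the heat-selected larvae at 20 °C. The other omissions left 1 gene, CRE21731.

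At 30 °C the test called 24 genes (0.178%), 21 higher (0.156%) and 3 lower (0.0223%) in heat-selected larvae. CRE07273 showed the largest fitted rise, with 40 reads in heat-selected larvae (7.30 and 2.53 CPM) and none in control-selected larvae. Taken against a floor of 3 reads over the 2 control-selected libraries, it was 21.6-fold higher (adjusted p = 0.033 by edgeR). The exact 95% interval of the ratio, which covers counting error only, began at 16.8. CRE07271, 2 places from it on linkage group 1 in the PX506 assembly, was at 7.52 and 12.7 CPM in heat-selected larvae and 0 and 0.743 CPM in control-selected larvae. CRE26693 had 118 reads in heat-selected larvae against 3 in control-selected larvae, a ratio of 63.8 (exact 95% interval 21.3 to 314, counting error only).

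The 3 genes lower in heat-selected larvae at 30 °C were CRE21731, CRE_PX356_2056 and CRE08770. CRE_PX356_2056, on scaffold 155, was at 38.0 and 28.6 CPM in heat-selected larvae and 106 and 211 CPM in control-selected larvae at 30 °C (log2 difference −2.24 ± 0.37 SE; adjusted p = 0.023 by edgeR). CRE08770 was at 27.0 and 17.0 CPM in heat-selected larvae and 67.6 and 71.4 CPM in control-selected larvae. Neither gene overlapped between the populations at 30 °C. At 20 °C CRE08770 was far higher in both populations, at 130 and 125 CPM in heat-selected larvae and 160 and 154 CPM in control-selected ones.

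The count at 30 °C rested on single libraries. When one or the other control-selected library at 30 °C was left out, only CRE21731 was called. Without replicate 1 of the heat-selected larvae at 30 °C 212 genes were called, and without replicate 2, 63. Scaled to total counts, 12 genes were called, 9 higher and 3 lower. No gene was called for a population difference that itself changed between larval temperatures (0%), 0 by edgeR, by DESeq2 and by limma-voom, with 450 genes at an unadjusted p under 0.05 in edgeR (3.34%). Without replicate 1 of the heat-selected larvae at 30 °C 15 genes were called in this test, and 2 without replicate 1 of the heat-selected larvae at 20 °C. The larger number of calls at 30 °C is therefore not shown to differ from that at 20 °C.

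Of the 24 genes called at 30 °C, 16 were also called between unheated parents' larvae in batches F and D, which is 66.7% of the 24 and 3.56% of the 449. The sign was the same for CRE21731, CRE_PX356_2056 and CRE_PX356_3667 and opposite for the other 13. The 13 were CRE01760, CRE02261, CRE03765, CRE07273, CRE10232, CRE10712, CRE16305, CRE16931, CRE17369, CRE20806, CRE26392, CRE26693 and CRE29510, a group chosen after its values were seen, for which no test is given. With heated parents at 30 °C their median was 15.7 and 9.77 CPM in the 2 heat-selected libraries and 0.591 and 1.34 CPM in the 2 control-selected libraries. In the ancestor at the same temperatures it was 18.6 and 14.1 CPM, and each of the 13 genes was higher in both ancestor libraries than in both control-selected ones. The 13 were chosen partly for low values in those control-selected libraries, so this order is partly built into their choice. The share of all genes tested with this order was not counted.

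With unheated parents at 30 °C the same 13 genes had medians of 4.82, 2.94, 9.78 and 9.58 CPM in replicates 3 to 6 of the heat-selected larvae (batch F). Control-selected larvae (batch D) stood at 15.1 and 24.4 CPM in replicates 3 and 4 and at 154 and 281 CPM in replicates 5 and 6. For 12 of the 13 genes those last 2 libraries were above all other 46 libraries of the study. CRE29510 reached 247 and 456 CPM there and CRE26693 154 and 289 CPM. Replicates 5 and 6 were above all others for 14 of the 24 genes called at 30 °C. The 13 were chosen partly for higher values in batch D, and the share of all genes tested with this order was not counted. At 20 °C the medians of the 13 genes in replicates 3 to 6 were 3.30, 3.72, 2.65 and 2.62 CPM in heat-selected larvae (batch F). In control-selected larvae at 20 °C (batch D) they were 2.20, 6.18, 3.96 and 5.73 CPM. Batches E and C were low on both sides, at 0.927 and 0.938 CPM in heat-selected larvae and 1.33 and 1.85 CPM in control-selected larvae of unheated parents at 30 °C. The opposite sign in batches F and D thus accompanied 2 control-selected libraries with very high values, and the part of batch, replicate and population in those values was not tested.

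**Figure D4:**
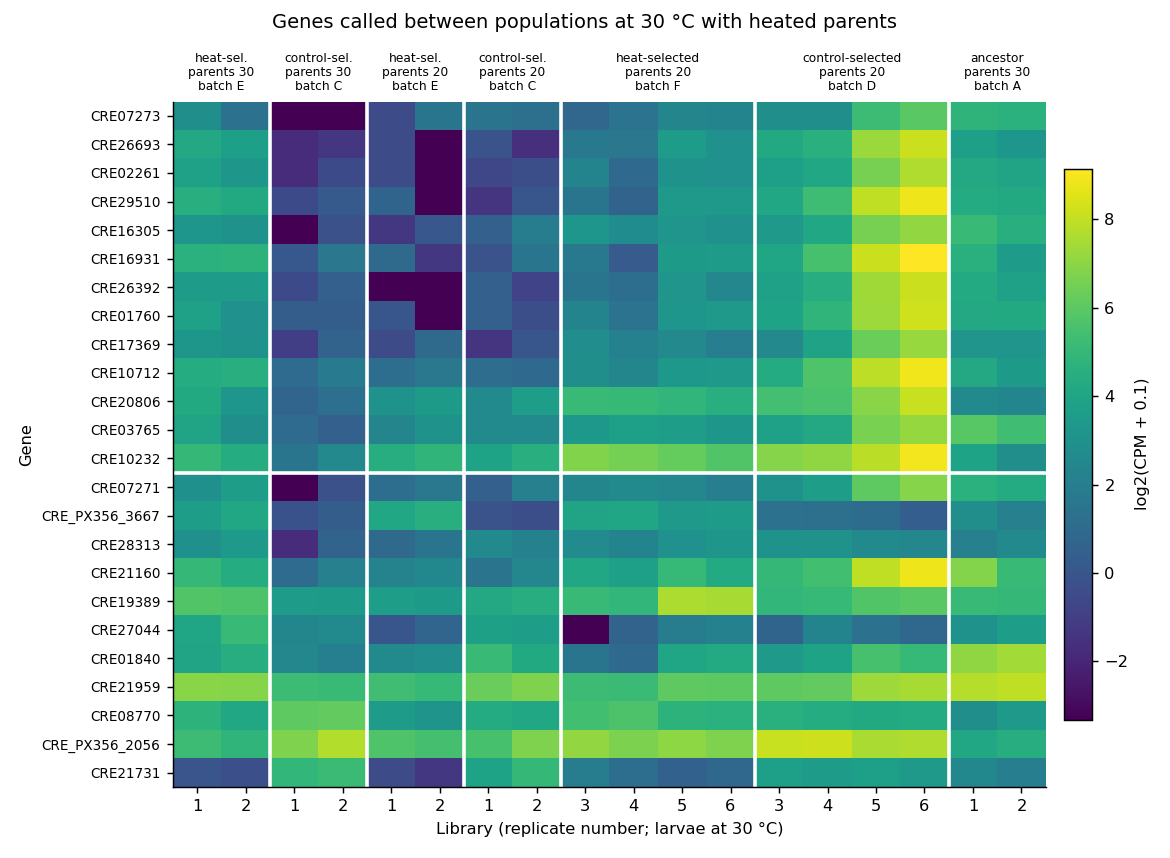
Log2(CPM + 0.1), as colour, of the 24 genes called at 30 °C with heated parents, in 18 libraries of larvae at 30 °C grouped by population, parental temperature and batch. The upper 13 genes are those with the opposite sign in batches F and D: they are higher in heat-selected larvae of heated parents than in the control-selected ones, and reach a median of 154 and 281 CPM in replicates 5 and 6 of control-selected larvae of unheated parents.

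Whether the population difference changed with the temperature of the parents was tested directly within batches E and C, in 16 libraries, where a constant difference between batches cancels. The test called 31 genes (0.23%), 14 with a more positive (0.104%) and 17 with a more negative (0.126%) difference between heat-selected and control-selected larvae when parents were heated. The 2 groups had different shapes. With each parental temperature fitted alone, the difference of the 14 genes was positive with heated parents, from 0.08 to 1.88 with a median of 0.97 on the log2 scale, and negative with unheated parents, from −3.73 to −0.22 with a median of −1.25. For the 17 genes it was under 0.5 in size with heated parents in 15, and −0.96 for CRE30598 and −0.75 for CRE19011 in the others; it ran from −0.96 to 0.27 with a median of −0.21, and was positive with unheated parents, from 0.76 to 3.34 with a median of 1.46. Scaled to total counts the split was 16 and 13. The genes were called for the change between these 2 differences in the same libraries, so the signs are partly built into their choice. Of the 14 genes, 2 were called between the populations with heated parents and 1 with unheated parents. Of the 17, the numbers were 0 and 4.

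In 16 of the 17 genes the highest of the 8 group means was that of heat-selected larvae at 30 °C from unheated parents. In 15 both of those libraries were above the other 14. The 17 genes were called in these same 16 libraries, so such a pattern is partly built into their choice. The share of all genes tested that show it was not counted. CRE29200 was at 18.1 and 14.1 CPM in the heat-selected larvae at 30 °C from heated parents and 278 and 283 CPM from unheated parents. In control-selected larvae at 30 °C it was at 13.4 and 17.2 CPM from heated parents and 17.9 and 20.6 CPM from unheated parents. Among these 8 libraries the high values were those of the heat-selected larvae of unheated parents. Outside the test, at 30 °C, heat-selected larvae of unheated parents in batch F had 135, 111, 19.8 and 25.6 CPM of CRE29200 in replicates 3 to 6, control-selected ones in batch D had 54.4 to 77.5 CPM, and ancestor larvae of heated parents had 322 and 325 CPM. Its difference changed by −3.02 ± 0.26 (log2 ± SE; adjusted p = 2.2e-05 by edgeR) and was called in all 16 fits that left out 1 library (highest adjusted p = 0.00031 by edgeR).

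CRE01098 followed the same pattern, at 2.65 and 6.51 CPM in the heat-selected larvae at 30 °C from heated parents and 158 and 191 CPM from unheated parents. Control-selected larvae at 30 °C had 3.94 and 5.20 CPM from heated and 6.41 and 2.54 CPM from unheated parents. Heat-selected larvae of unheated parents in batch F, which the test did not use, had 60.3, 68.1, 8.42 and 10.2 CPM in replicates 3 to 6. The change in the difference was −2.90 ± 0.45 (log2 ± SE; adjusted p = 0.0088 by edgeR), and the call was lost in 1 of 16 fits without a library (adjusted p = 0.052).

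Among the 14 genes, the lowest of the 8 group means was that of heat-selected larvae at 30 °C from unheated parents in 11. These genes too were called in the same libraries, and the share among all genes tested was not counted. CRE30999 was at 25.7 and 15.2 CPM in the heat-selected larvae at 30 °C from heated parents and 1.24 and 0.625 CPM from unheated parents, and in control-selected larvae at 9.26 and 6.24 CPM from heated and 11.7 and 17.8 CPM from unheated parents. The population order at 30 °C was thus opposite at the 2 parental temperatures. The change was 4.15 ± 0.47 (log2 ± SE; adjusted p = 0.00049 by edgeR), called in all 16 fits without a library. At 20 °C CRE30999 was at 80.3 and 60.8 CPM in heat-selected larvae of heated parents and 1.99 and 0.867 CPM in those of unheated parents, while control-selected larvae were at 17.5 and 11.8 CPM from heated and 2.51 and 2.44 CPM from unheated parents.

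CRE02924 changed by 4.25 ± 0.71 (log2 ± SE; adjusted p = 0.014 by edgeR), with its larger difference in the larvae of unheated parents. With heated parents its population difference was 0.08 ± 0.38, and with unheated parents in batches E and C −3.73 ± 0.58. At 30 °C it was at 0.664 and 2.90 CPM in heat-selected larvae of heated parents and 0.309 CPM and 0.313 CPM in those of unheated parents. Control-selected larvae at 30 °C had 1.97 and 0.594 CPM from heated and 13.9 and 29.8 CPM from unheated parents. The call of CRE02924 was lost in 5 of 16 fits without a library, with adjusted p up to 0.13.

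The count of 31 ran from 8 to 65 when 1 library was left out, the lowest without replicate 2 of the heat-selected larvae at 30 °C from unheated parents and the highest without replicate 1 of those from heated parents. It was 20 or lower without both replicates (left out one at a time) of the heat-selected larvae at 30 °C from unheated parents, replicate 1 of the heat-selected larvae at 20 °C from heated parents, both replicates of the control-selected larvae at 20 °C at either parental temperature, replicate 1 of the control-selected larvae at 30 °C from heated parents and replicate 2 of those from unheated parents. With both heat-selected libraries that stand apart left out it was 23, 16 of them among the 31. CRE10860 and CRE30999 were called both here and between the populations with heated parents, 2 results that share the libraries of heated parents. CRE10860 had differences of 1.28 with heated and −0.93 with unheated parents, and was called in all 16 fits without a library.

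**Figure D5:**
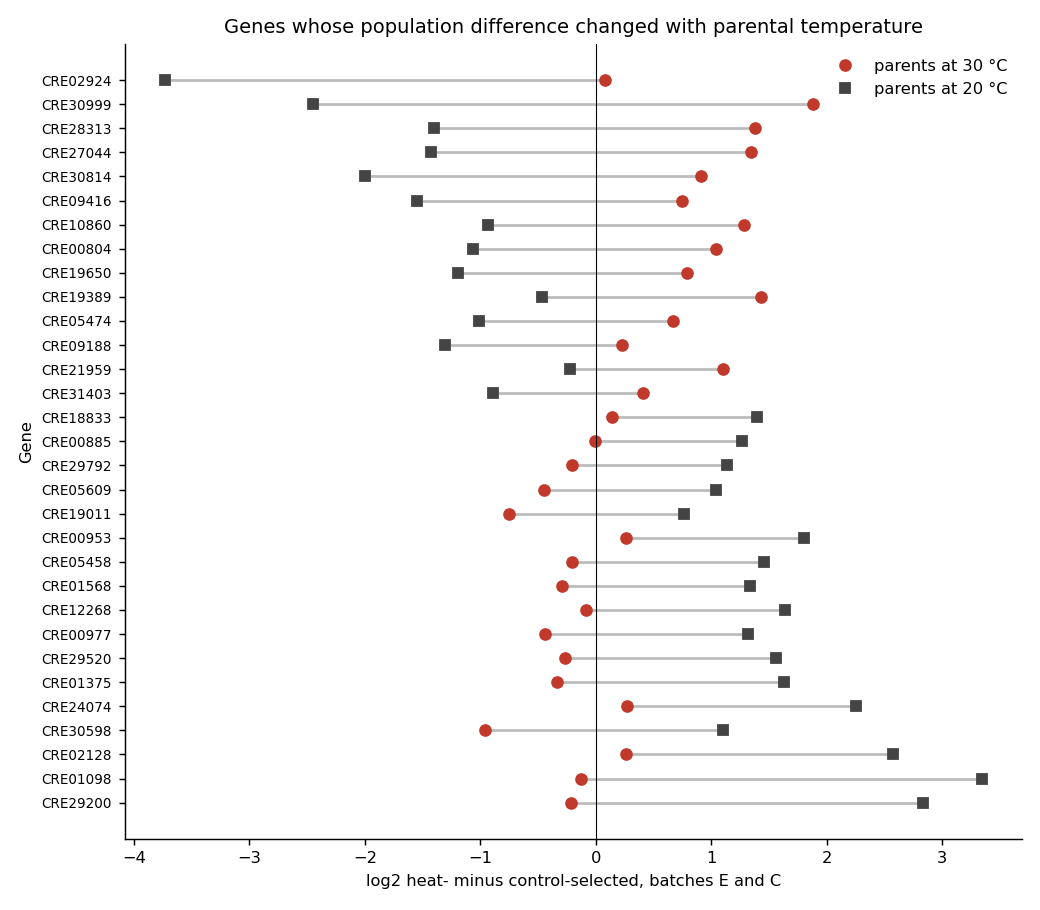
Log2 difference between heat-selected and control-selected larvae in batches E and C for the 31 genes whose difference changed with parental temperature, from parents at 30 °C (circles) and at 20 °C (squares), each fitted with larval temperature as a covariate and joined by a line per gene. In the upper 14 genes circles lie above 0 and squares below it; in the lower 17 genes circles lie between −0.96 and 0.27 and squares between 0.76 and 3.34.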

How the data were processed

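The authors deposited raw read counts per gene model, 1 file per library with 24723 models and 5 closing categories of reads left uncounted, which stayed out of totals and tests. Per the submitters' processing notes, reads were aligned with GSNAP (2013-03-31) and counted with HTSeq. The genome build, HTSeq's version and the strandedness of the libraries are not given in the sources used here, and reads of antisense or overlapping models could not be told apart. Reads not assigned to genes made up 40.1 to 65.9% of the 8 libraries.

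Genes with enough reads by edgeR's filterByExpr (minimum count 10) over all 48 libraries were kept (13460), with TMM scaling factors. Differences were fitted with edgeR 4.0.16 (R 4.3.3) by the quasi-likelihood test on the counts of the compared libraries alone, and p-values were adjusted by Benjamini-Hochberg over all genes tested. CPM are counts divided by the TMM-scaled total over the genes tested. The 7 comparisons were the population difference with heated parents (additive larval temperature), at each larval temperature, its change with larval temperature, the same difference with unheated parents in batches E and C and in batches F and D, and its change with parental temperature. The rule for named genes took called genes whose mean log2 CPM was 1 or more, by size of change: with heated parents over both larval temperatures up to 10 in each direction with a PX506 locus tag and 2 without, and elsewhere 2 in each direction. Genes whose values overlapped between the populations were left out, except for the changes with larval or parental temperature. The comparisons, lists and rule were chosen with earlier results of these data known. Lists of genes by function were not run, since the identifiers matched locus tags (10462 of those tested) but no names.

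On simulated counts with known changes the main test recovered 35.8% of genes changed by 1, 92.5% by 2 and 87.9% by 4 on the log2 scale. The test of the change with larval temperature recovered 3%, 28.4% and 71.2%. False calls were 5 of 149 in the main test and 5 of 73 in the other. The simulated counts had no effect of larval temperature and no library that stood apart, so these shares need not hold for the 8 libraries. Replicates differed by more than sampling noise and were all kept. Alternatives were DESeq2's (1.42.0) size factors and test, total counts, limma-voom (limma 3.58.1), other filters, other fits and the omission of each library.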

Additional observations from a re-analysis of the deposited data

Results flagged for a closer look

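In the heat-selected libraries of heated parents, CRE21793 was at 0.172 CPM in replicate 1 at 20 °C and at 0 in the other 3, so that this library stood apart from the rest by a single read. Replicate 2 of the heat-selected larvae at 20 °C had 47.1% of its reads outside genes, against 19.2 to 23.4% in the other 3 heat-selected libraries. Replicate 2 of the control-selected larvae at 30 °C had 31.4% of its reads not aligned, against 13.1 to 16.1% in the other 3 control-selected libraries. In all, 36 groups of values were examined for a distant library, and chance alone picks out about 1 in 20. The part of these libraries in the results was not tested beyond the counts of calls without each of them.

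The population difference changed with the temperature of the parents for 31 genes (adjusted p under 0.05 by edgeR). The genes named by the rule were CRE02924 and CRE30999, whose differences changed by 4.25 and 4.15 on the log2 scale, and CRE29200 and CRE01098, whose differences changed by −3.02 and −2.90. Of the 21 genes called higher in heat-selected larvae of heated parents at 30 °C, 14 had no overlap there and the reverse order with unheated parents. For these 14, at 30 °C, every heat-selected library of unheated parents in batch F was below every control-selected library in batch D. The share of all genes tested with this order was not counted. This difference between the parental temperatures was seen across different batches, and no test was run across them. Within batches E and C the change with parental temperature was tested, over both larval temperatures. It was called for 4 of the 24 genes called at 30 °C, CRE19389, CRE21959, CRE27044 and CRE28313. Those 2 results share the libraries of heated parents.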

How the results depend on the processing

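Depth limited genes with few reads. The labels do not say what a replicate number shares, so the main fits had no replicate block. Deviations of same-numbered libraries correlated at −0.14 to 0.34, which does not decide whether they were paired. With the replicate block the counts of called genes were 14 for the population difference with heated parents, 7 at 20 °C, 24 at 30 °C, 0 for its change with larval temperature, 15 with unheated parents in batches E and C, 571 in batches F and D and 28 for the change with parental temperature. For the genes called with heated parents (over both larval temperatures and at each) and for the change with parental temperature, 1590 values under alternatives were computed, none with the opposite sign, and 1039 kept the call; for single genes with unheated parents no alternatives were run. The cause of the changes below was not tested.

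With heated parents over both larval temperatures (10 genes), 110 genes were called with no filter, 51 by DESeq2, 4 at a minimum count of 50, 19 in a fit of all 48 libraries with batch, 4 with a threshold of 1 on the log2 change, 18 with one mean per group, 167 with the libraries of a group summed, 71 with sample quality weights in limma-voom (added after seeing the data) and 93 without both libraries that stand apart. At 20 °C (2 genes) the counts were 37 with no filter, 10 by DESeq2, 5 in the fit of all libraries with batch, and 1 each at the higher minimum, with the filter and scaling over the 8 libraries, in the fit without batch and with the threshold. At 30 °C (24 genes) they were 12 scaled to total counts, 80 with no filter, 13 by limma-voom, 12 at the higher minimum, 7 and 3 in the fits of all libraries with and without batch, and 4 with the threshold. For the change with larval temperature, no filter gave 22 calls. With unheated parents in batches E and C (24 genes), total counts gave 15, no filter 181, DESeq2 80 and limma-voom 40. For the change with parental temperature (31 genes), no filter gave 117, DESeq2 85, the fits of all libraries 4 with and 8 without batch, and the threshold 2. Total counts moved the median log2 difference by −0.206 at 20 °C, by −0.162 in batches E and C, by 0.304 for the change with larval temperature and by 0.108 for that with parental temperature.

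Leaving out 1 library at a time, counts ran from 4 to 106 over both larval temperatures, from 1 to 22 at 20 °C, from 1 to 212 at 30 °C, from 0 to 15 for the change with larval temperature, from 8 to 265 and from 289 to 535 in the 2 sets of unheated parents, and from 8 to 65 for the change with parental temperature.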

Other observations

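Some of the genes whose population difference changed with parental temperature lie near each other. CRE30598 and CRE01375, on linkage group 4, are 8 places apart in the PX506 assembly, and both had more negative differences with heated parents (changes of −2.03 and −1.94 on the log2 scale). CRE00977 and CRE00953, both on scaffold 35 of the authors' gene models and 30 places apart in the PX506 assembly, changed by −1.76 and −1.54. CRE01098 lies on scaffold 35 as well. These genes were picked after their values were seen, and no test of their position was made.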
